A study of Glycine max with 6 samples.

Results

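CAB3, PSAD and ELIP are 3 nuclear genes for proteins of the chloroplast's photosynthetic membranes, and they were followed here in root RNA of the near-isogenic soybean (Glycine max) lines Clark and IsoClark. The clones were chosen by name: every row of the deposited table of ratios whose single gene symbol was CAB3, PSAD or ELIP was matched to its cDNA clone on the arrays. This gave 11 clones of 18361, each printed as 1 spot: 6 of CAB3 (gene identifier 547862), 3 of PSAD (gene identifier 100101915) and 2 of ELIP (gene identifier 547896). Of these, 8 come from Gm-r1021 and Gm-r1083, the unigene sets of root libraries, and 3 belong to Gm-r1070, a set made from libraries of seed coat, seedling, cotyledon, flower and pod.

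In leaves, CAB3 encodes a chlorophyll a/b binding protein, one of the antenna proteins that gather light and pass its energy to the reaction centres. PSAD encodes a subunit on the stromal face of photosystem I, where ferredoxin docks to receive electrons. ELIP encodes an early light-induced protein, a pigment-binding relative of the antenna proteins that accumulates during greening and under strong light and is known for protecting the membrane. Transcripts of such genes are abundant in green tissue and are usually scarce in roots kept in the dark. Antenna proteins are encoded by a family of similar genes, so a cDNA spot can also capture transcripts of related copies, and the values of a clone are not certain to be those of 1 gene copy alone.

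Clark is Fe-efficient and stays green when iron is scarce. IsoClark is its Fe-inefficient counterpart, bred by backcrossing a cross of Clark with the Fe-inefficient line T203 to Clark. Both were grown with sufficient iron in hydroponics in a greenhouse, and each RNA sample pooled the roots of several plants of 1 hydroponic unit. The 3 biological replicates each gave 2 arrays, with the dyes Cy3 and Cy5 exchanged on the second, 6 arrays in all, with 90 ug of RNA in each labelling. The IsoClark-Cy3 array of a replicate carried IsoClark in Cy3 and Clark in Cy5, and the IsoClark-Cy5 array the reverse. In pooled tissue, fewer cells expressing a gene and less RNA per cell cannot be told apart. Each p-value below rests on how far the 3 replicate values scatter. In the limma fit, the scatter of each clone was also drawn toward that of all clones tested.

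The arrays were not alike in quality. Between 18.9% and 44.2% of the cDNA spots were flagged as poor by the image program, and the brightness of the spots on the IsoClark-Cy5 array of replicate 2 correlated with that of the other arrays at a mean Pearson's r of 0.346, against 0.601 to 0.710 for the other 5. The labelling protocol of that array names the opposite dyes to its label field. The deposited ratio column of the IsoClark-Cy3 array of replicate 3 runs Clark over IsoClark by its dyes. The label fields were followed here. Of the spots of 15 clones of 5 root-expressed genes (DMT1, IFS1, IFS2, PIP2-6 and PRX2), 93.3% to 100% lay above background per array in both lines. Since 87.4% of all cDNA spots did so on average, this share does not identify the tissue.

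Signal of the photosynthesis genes was seen in both lines on nearly every array. A spot was counted as above background when its signal mean exceeded its local background median by 2 background SD. By this measure 65 of 66 spots of the 11 clones were above background in IsoClark and 65 of 66 in Clark. Spots flagged as poor were counted too. With poor spots left out, the share over both lines was 97.2% for these clones and 83.8% for all cDNA spots. All 6 CAB3 clones and all 3 PSAD clones were above background on all 6 arrays in each line, and so was the ELIP clone Gm-r1021-3006. The exception in both lines was the ELIP clone Gm-r1070-5167 on the IsoClark-Cy5 array of replicate 3. Thus 10 of 11 clones were above background on all 6 arrays in each line. Over all 18361 clones this held for 64.5% in IsoClark and 65.9% in Clark.

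Per replicate, the share of these spots above background was 100%, 100% and 95.5% in IsoClark and likewise 100%, 100% and 95.5% in Clark. The mean was 98.5% ± 2.62 (SD, n = 3) in each line, and the difference between the lines was 0 percentage points in every replicate. All cDNA spots together gave 86.9% ± 7.33 in IsoClark and 87.9% ± 6.01 in Clark (SD, n = 3). The photosynthesis clones exceeded that level in 3 of 3 replicates, by 11.6 ± 5.76 percentage points in IsoClark and 10.6 ± 4.74 in Clark. The two-sided exact sign-flip test gave p = 0.25 for each, the smallest p that 3 replicates allow. The comparison with all cDNA spots mixes print sets: the root sets had 90.7% ± 4.71 and the Gm-r1070 set 83.1% ± 9.87 above background in IsoClark (SD, n = 3).

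Blank and empty positions served as a comparison. Among the 551 blank or empty spots, 7.71% ± 0.943 in IsoClark and 7.38% ± 0.669 in Clark passed the same threshold (SD, n = 3). A few of them were bright: the 95th percentile of their signal over background ran from 2.65 to 16.4 over the arrays and dyes. Against this stricter level of the same array and dye, 55 of 66 spots of the photosynthesis clones lay above it in IsoClark and 52 of 66 in Clark. PSAD clones Gm-r1021-2381 and Gm-r1083-1795 passed it on all 6 arrays in both lines. ELIP clone Gm-r1070-5167 passed it on 3 of 6 arrays in each line, and CAB3 clone Gm-r1070-3929 on 3 in IsoClark and 2 in Clark. The IsoClark-Cy5 array of replicate 2 had the fewest, with 5 of 11 spots in IsoClark and 4 of 11 in Clark.

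**Figure D1:**
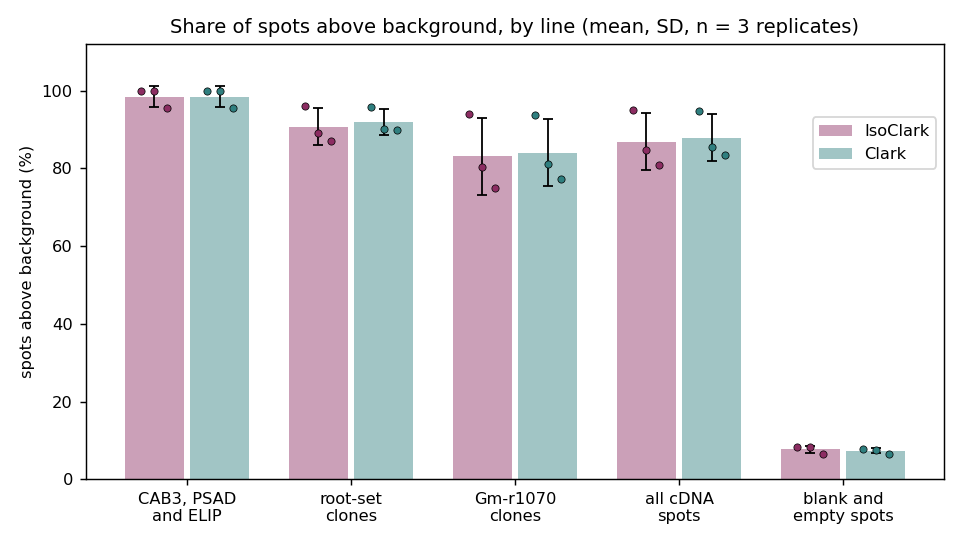
Bars give the mean share of spots above background in percent for IsoClark and Clark, error bars the SD, and points the 3 replicates. The CAB3, PSAD and ELIP clones stand at 98.5% in both lines, above all cDNA spots (86.9% and 87.9%) and far above blank and empty spots (7.71% and 7.38%).

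The strength of the signal differed between the clones and between arrays. Signal over background is the signal mean divided by the local background median. For CAB3 clone Gm-r1083-1761 it had a median over the 6 arrays of 14.5 in IsoClark (6.55 to 51.1) and 15.2 in Clark (5.41 to 34.2). For CAB3 clone Gm-r1070-3929 it was 5.11 in IsoClark (3.28 to 32.6) and 6.50 in Clark (2.56 to 17.5). The medians of the other 4 CAB3 clones ran from 8.88 to 13.6 in IsoClark and from 8.01 to 13.1 in Clark. These ranges hold differences between arrays and dyes and do not compare the lines, which is done by the ratio within each array.

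Of the PSAD clones, which report the photosystem I subunit, Gm-r1083-1795 had a median signal over background of 14.7 in IsoClark (11.1 to 44.2) and 17.4 in Clark (7.39 to 24.8). Gm-r1070-1140 had 12.0 in IsoClark (5.53 to 48.5) and 10.1 in Clark (5.58 to 22.3). Gm-r1021-2381 had 9.27 in IsoClark (6.34 to 30.2) and 13.3 in Clark (3.92 to 19.3).

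Of the ELIP clones, Gm-r1021-3006 had a median signal over background of 6.85 in IsoClark (4.91 to 31.1) and 10.3 in Clark (3.76 to 17.9). Gm-r1070-5167 had 6.49 in IsoClark (1.47 to 24.6) and 5.40 in Clark (1.60 to 11.8). Its lowest values in both lines were those of the IsoClark-Cy5 array of replicate 3, where the image program flagged the spot as empty.

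**Figure D2:**
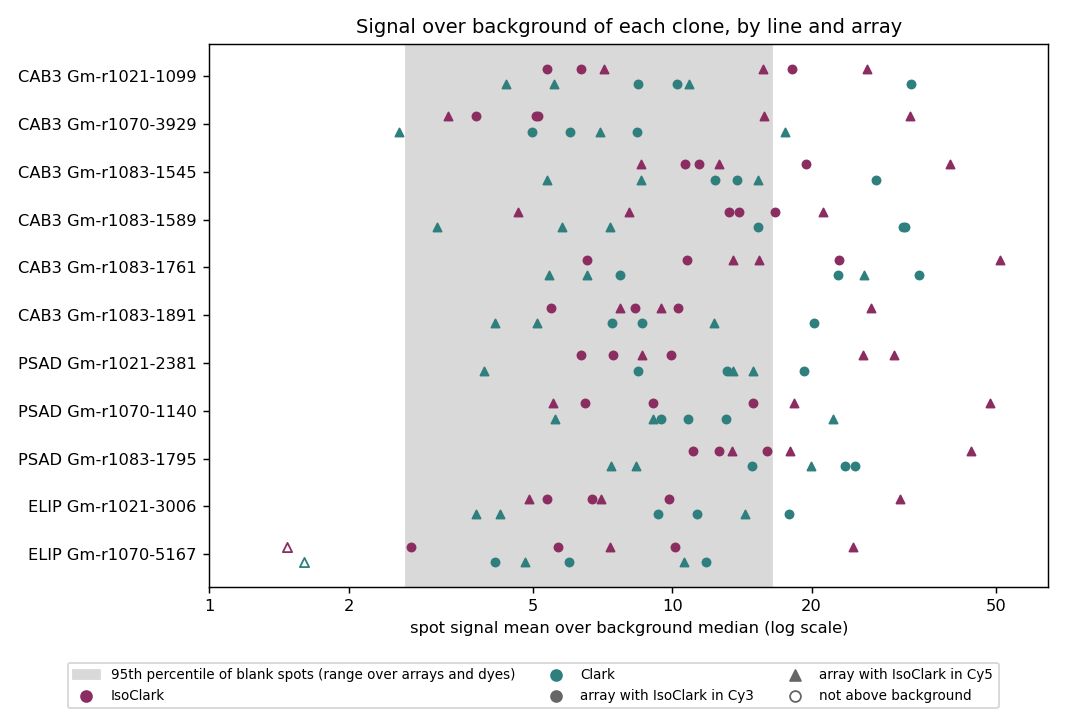
Each point is the signal mean over the background median (log scale) of a clone on 1 array, coloured by line and shaped by the dye of IsoClark. The grey band spans the 95th percentile of blank spots over arrays and dyes, 2.65 to 16.4. The open points of ELIP clone Gm-r1070-5167, at 1.47 and 1.60, are the spots not above background.

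To set arrays of unlike brightness side by side, each background-subtracted signal was ranked among all cDNA spots of the same array and dye. The resulting brightness percentile also depends on the DNA printed in a spot and is no transcript count, so no clone was tested against another. The median over the 11 clones of their mean percentile was 62.7, where 50 would be the middle of the array. By clone, the mean percentile ran from 37.9 ± 7.34 for ELIP clone Gm-r1070-5167 to 76.1 ± 6.75 for PSAD clone Gm-r1083-1795 (SD, n = 3). Neighbours in this order differed by less than the larger of their SDs.

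For CAB3 the mean percentiles were 70.6 ± 9.94 (Gm-r1083-1545), 69.6 ± 19.3 (Gm-r1083-1761) and 62.7 ± 7.17 (Gm-r1083-1589). They were 56.7 ± 3.54 (Gm-r1083-1891), 56.5 ± 16.5 (Gm-r1021-1099) and 45.3 ± 20.3 (Gm-r1070-3929). The other PSAD clones had 71.1 ± 7.16 (Gm-r1070-1140) and 65.6 ± 11.7 (Gm-r1021-2381), and the other ELIP clone had 52.8 ± 14.4 (Gm-r1021-3006; all SD, n = 3). Clones of 1 gene thus spread over a wide range, and all but CAB3 Gm-r1070-3929 and ELIP Gm-r1070-5167 lay above the middle of the array.

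On a single array, the percentiles of a clone in the 2 lines differed by a median of 3.48 points over 66 clone and array pairs. The widest gap was 18.9 points, for PSAD clone Gm-r1070-1140 on the IsoClark-Cy5 array of replicate 2. IsoClark minus Clark was between -4.68 and 4.41 percentile points in the mean over the 11 clones. ELIP clone Gm-r1021-3006 was lower in IsoClark in 3 of 3 replicates, by -3.32, -6.54 and -4.17 points. CAB3 clone Gm-r1083-1891 was higher in IsoClark in 3 of 3 replicates, by 2.92, 8.27 and 2.05 points, and so was ELIP clone Gm-r1070-5167, by 2.55, 4.44 and 1.90 points. The other clones changed sign between replicates. How many of all clones kept 1 sign was not computed, so no line difference is read from these values. Of the spots of Gm-r1021-3006, 3 were flagged as poor, and Gm-r1083-1891 and Gm-r1070-5167 each had 1 flagged as empty.

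The same clone could change its rank strongly from array to array. CAB3 clone Gm-r1070-3929 stood at percentiles 94.4 (IsoClark) and 90.1 (Clark) on the IsoClark-Cy5 array of replicate 2 and between 13.7 and 48.5 on the other 5 arrays. PSAD clone Gm-r1021-2381 stood at 95.9 and 92.4 on that array and between 31.0 and 70.6 on the others. ELIP clone Gm-r1021-3006 went the other way, with 15.5 and 19.6 there and 25.5 to 77.8 elsewhere. ELIP clone Gm-r1070-5167 was near the bottom on 2 other arrays, at 6.47 and 4.47 on the IsoClark-Cy3 array of replicate 1 and at 4.09 and 4.53 on the IsoClark-Cy5 array of replicate 3, and between 41.7 and 66.4 on the other 4. Where both lines of an array are given here, they lay within 5 points of each other. This does not hold for the ranges: the 31.0 of PSAD Gm-r1021-2381 in IsoClark stood beside 48.1 in Clark. On the IsoClark-Cy5 array of replicate 2, the spots of CAB3 Gm-r1070-3929 and ELIP Gm-r1021-3006 were flagged as poor, and that of PSAD Gm-r1021-2381 was usable. The ELIP Gm-r1070-5167 spot was flagged as empty on the IsoClark-Cy5 array of replicate 3. Poor spots were kept in these ranks but not in the line ratios. The part of array quality in these shifts was not tested. Without the IsoClark-Cy5 array of replicate 2, the median over the clones was 60.6.

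**Figure D3:**
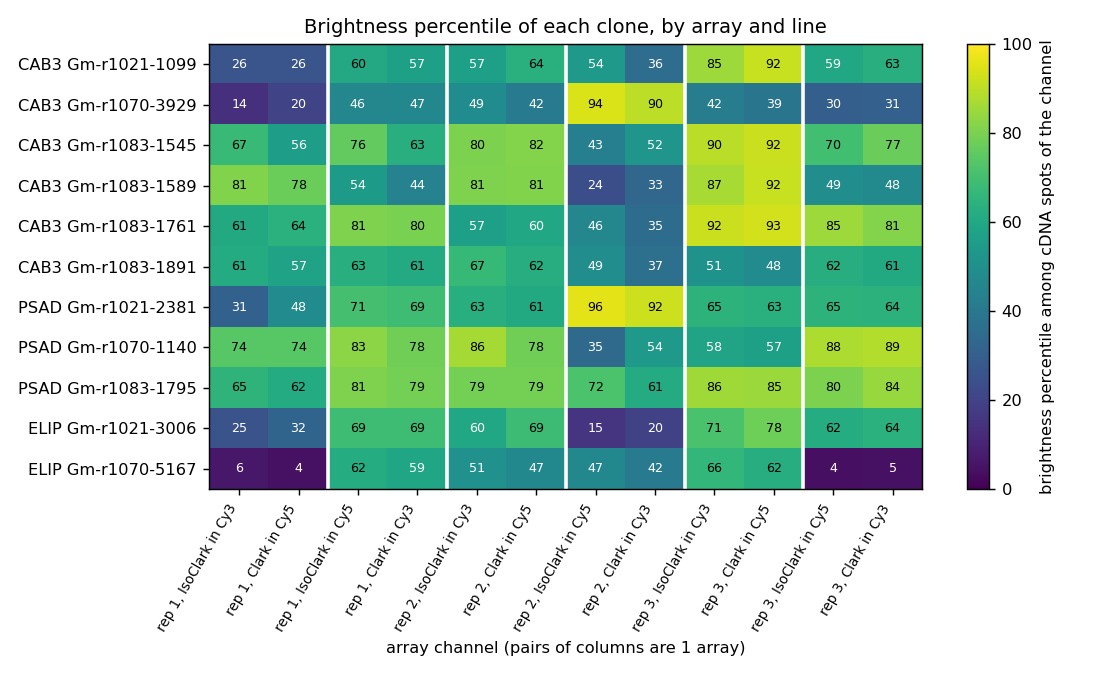
Each cell is the brightness percentile (0 to 100) of a clone among the cDNA spots of 1 array and dye, with pairs of columns for the lines of 1 array. The columns of a pair differ by a median of 3.48 points and by up to 18.9. CAB3 Gm-r1070-3929 ranges from 13.7 to 94.4 between arrays, the latter on a spot flagged as poor.

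The comparison of the lines asked whether these transcripts differ between an Fe-efficient and an Fe-inefficient root when iron is sufficient. No tested clone of the 3 genes passed the adjusted test. CAB3 clone Gm-r1083-1891 and ELIP clone Gm-r1070-5167 had means larger than their SD between replicates. How many of all tested clones had this was not computed, so it does not show a difference between the lines. Each line ratio is the log2 of IsoClark over Clark after loess normalization within the array, given as the mean ± SD of the 3 replicate values. A clone was tested when it was above background in either dye on at least 3 arrays and had a usable spot in all 3 replicates. Of the 11 clones, 9 met this: all 6 CAB3 clones, 2 PSAD clones and 1 ELIP clone. The other 2 had only poor spots in replicate 2. Over all arrays, 17 of 66 spots of the 11 clones (25.8%) were flagged as poor, beside 29.3% of all cDNA spots.

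In limma, 0 of 9 clones had an adjusted p under 0.05, and 0 of 13430 clones on the whole array did (0%). The smallest adjusted p was 0.796. No clone of the 9 had an unadjusted p under 0.05, which 5.53% of all tested clones had. A mean of at least 2-fold was reached by 0 of 9 and by 0.0298% of all. For 9 of 9 the 95% limma interval of the ratio stayed inside 2-fold up or down, beside 97.9% of all. That interval draws on the scatter of all tested clones, whose median SD was 0.222. For a clone of larger SD, such as CAB3 Gm-r1083-1589 (0.42), the interval is narrower than the clone's own 3 values would give. The mean was above 0 for 5 of 9 clones and for 50.7% of all, and the median ratio was 0.050 over the 9 clones and 0.0031 over all tested. These shares are near those of the whole array.

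The 6 CAB3 clones, read together as the antenna gene, centred on 0. Their average was 0.18, 0.045 and -0.075 in replicates 1, 2 and 3, which gives 0.049 ± 0.13 (SD, n = 3). The clones ranged from -0.17 to 0.23 in their means and did not share a sign.

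CAB3 clone Gm-r1083-1891 lay furthest to the IsoClark side. On the arrays with IsoClark in Cy3 its ratios were 0.23, 0.20 and 0.13 in replicates 1, 2 and 3, and with IsoClark in Cy5 they were 0.083, 0.68 and 0.082. All 6 were above 0, with that of the IsoClark-Cy5 array of replicate 2 well above the others; the image program flagged that spot as empty. The mean was 0.23 ± 0.18 (95% interval -0.080 to 0.55, limma adjusted p = 0.796). It was 0.16 without that array and 0.0082 with the array turned as its labelling protocol names the dyes.

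CAB3 clone Gm-r1083-1761 also had usable spots on all 6 arrays. With IsoClark in Cy3 its ratios were -0.054, -0.16 and -0.11, and with IsoClark in Cy5 they were 0.048, 0.68 and 0.22. The sign followed the dye on every array. The mean of the swap pairs was 0.10 ± 0.14 (95% interval -0.20 to 0.41, limma adjusted p = 0.873). Without the IsoClark-Cy5 array of replicate 2 it was -0.036.

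The other 4 CAB3 clones changed sign between replicates. Gm-r1021-1099 had 0.14, -0.35 and -0.29 in replicates 1, 2 and 3, and its mean was -0.17 ± 0.27 (adjusted p = 0.828, limma). Gm-r1070-3929 had -0.22, 0.33 and 0.17, with a mean of 0.094 ± 0.28 (adjusted p = 0.905, limma). Replicate 1 stood apart in both, in opposite directions. Gm-r1083-1545 had 0.53, -0.21 and -0.17, with a mean of 0.050 ± 0.41 (adjusted p = 0.965, limma). Gm-r1083-1589 had 0.47, -0.20 and -0.32, with a mean of -0.020 ± 0.42 (adjusted p = 0.990, limma). In the last pair of clones replicate 1 was high and the others were low, and each rested on 4 usable arrays. The dyes do not cancel in a replicate with 1 usable array. For Gm-r1083-1589, replicate 1 was the IsoClark-Cy5 array alone and replicate 3 the IsoClark-Cy3 array alone. For Gm-r1083-1545, replicate 2 was the IsoClark-Cy5 array alone and replicate 3 the IsoClark-Cy3 array alone. For Gm-r1021-1099, replicate 2 was the IsoClark-Cy3 array alone. For Gm-r1070-3929, replicates 2 and 3 were the IsoClark-Cy3 arrays alone.

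Of the PSAD clones, 2 could be tested, and their average was -0.24, -0.24 and -0.013 in replicates 1, 2 and 3, or -0.17 ± 0.13 (SD, n = 3). Gm-r1021-2381 had -0.61 in replicate 1, from 1 usable array, and 0.18 and 0.046 in replicates 2 and 3. Its mean was -0.13 ± 0.42 (95% interval -0.55 to 0.29, limma adjusted p = 0.889) and it was 0.11 without replicate 1. Gm-r1070-1140 had 0.13, -0.66 and -0.071, with replicates 2 and 3 each resting on the array with IsoClark in Cy5 alone. Its mean was -0.20 ± 0.41 (95% interval -0.61 to 0.21, limma adjusted p = 0.825) and it was 0.027 without replicate 2. Thus each mean changed its sign when 1 replicate was left out.

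PSAD clone Gm-r1083-1795 had only 2 usable spots. Their ratios were 0.074 on the IsoClark-Cy5 array of replicate 1 and 0.047 on the IsoClark-Cy3 array of replicate 3. With poor spots included, its 6 arrays ranged from -0.23 to 0.38 with a mean of 0.068. With all spots of the 3 PSAD clones included, the gene averaged 0.0083 ± 0.057 (SD, n = 3), where the usable spots of the tested clones had given -0.17.

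The ELIP clones lay on opposite sides of 0. Gm-r1070-5167 had 0.23, 0.19 and 0.22 on the arrays with IsoClark in Cy3 and 0.16, 0.36 and -0.0017 on those with IsoClark in Cy5, in replicates 1, 2 and 3. Its lowest ratio came from the array on which the spot was not above background. Its mean was 0.19 ± 0.083 (95% interval -0.10 to 0.48, limma adjusted p = 0.796), and 10.7% of all tested clones had a smaller SD. In the deposited ratio table the same array had -1.69 for this clone, and the mean there was -0.061.

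ELIP clone Gm-r1021-3006 was usable on 3 arrays. It had -0.24 and -0.0022 on the replicate 1 arrays with IsoClark in Cy3 and in Cy5 and -0.35 on the IsoClark-Cy3 array of replicate 3, and it was not tested. With poor spots included it was below 0 on all 6 arrays, from -0.45 to -0.0022, while Gm-r1070-5167 was above 0 on all 6, from 0.0032 to 0.25. On that basis the difference between the clones, Gm-r1070-5167 minus Gm-r1021-3006, was 0.34, 0.58 and 0.32 in the 3 replicates, or 0.41 ± 0.14 (SD, n = 3), and it was above 0 on 6 of 6 arrays. One of them was the IsoClark-Cy5 array of replicate 3, where the Gm-r1070-5167 spot was not above background. In the deposited ratio table that array gave -1.46, 5 of 6 arrays were above 0, and the mean difference was 0.22 ± 0.62 (SD, n = 3). Without that array it was 0.49 ± 0.13 from the scanner values and 0.56 ± 0.19 in the deposited table (SD, n = 3). The two-sided exact sign-flip test gave p = 0.25, the smallest that 3 replicates allow, and the pair was picked after its values were seen. Both clones carry the same gene symbol, and their sequences were not used here.

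**Figure D4:**
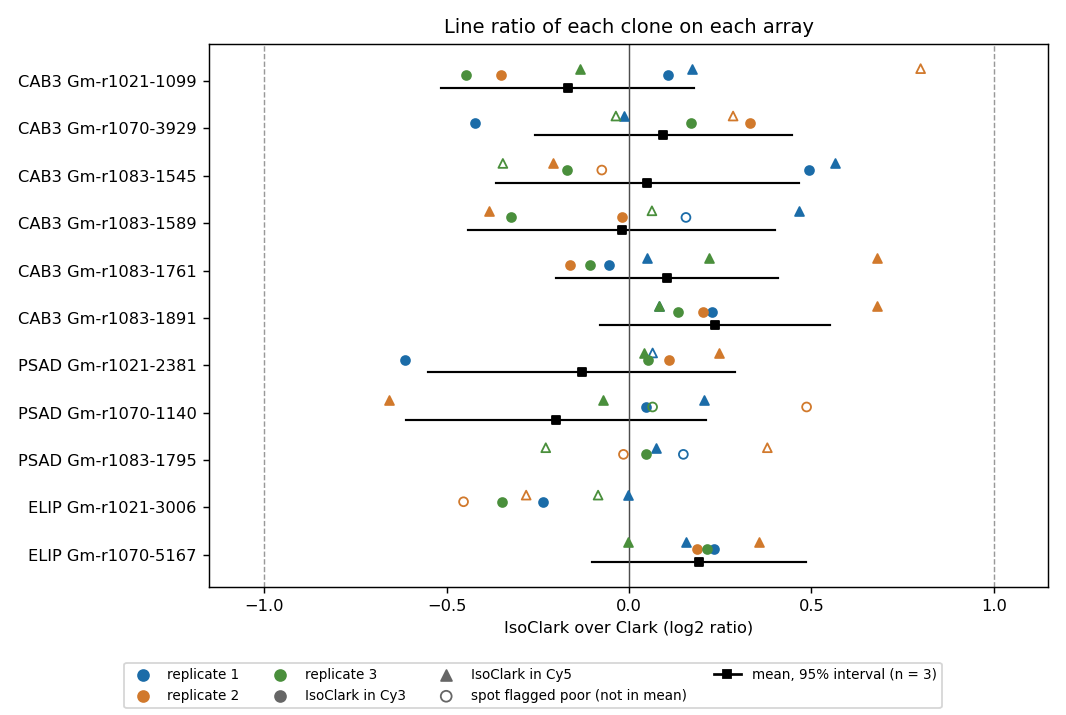
Points give the log2 ratio IsoClark over Clark of each clone on each array, coloured by replicate and shaped by dye, with open points for spots flagged as poor. Black squares and lines are the mean of the 3 replicates and its 95% limma interval for the 9 tested clones. Every interval includes 0 and lies between the dashed lines at 2-fold.

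The arrays of a swap pair carried the same RNA, and over the whole array their line ratios correlated at only 0.108, -0.062 and -0.079 in replicates 1, 2 and 3. Both arrays of a pair were usable in 17 cases over the 9 tested clones, and in 13 of them the ratios had the same sign, beside 48.8% of such pairs over all tested clones, where unrelated signs would give 50%. These pairs are not independent, since they come from few clones and 3 pairs of slides. Of the 3 clones usable on all 6 arrays, 1 (CAB3 Gm-r1083-1891) kept 1 sign on all of them, which 4.74% of all such clones did. Another 1 (CAB3 Gm-r1083-1761) had opposite signs in the 2 dye orientations, as 7.68% of all such clones had.

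**Figure D5:**
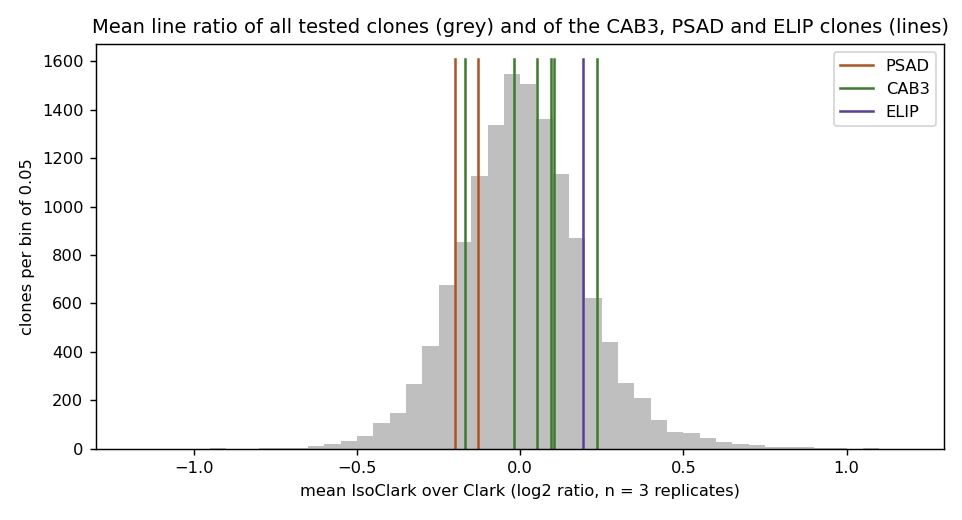
Grey bars count the tested clones by mean log2 ratio of IsoClark over Clark in bins of 0.05, and coloured lines mark the 9 tested clones of CAB3, PSAD and ELIP. The lines lie between -0.20 and 0.23, inside the 5th to 95th percentile of all tested clones (-0.30 to 0.33).

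Other genes of the photosynthesis and plastid list did not pass the test either. Apart from CAB3, PSAD and ELIP, 5 genes of the photosynthesis and plastid list had clones: CHLH, a subunit of the magnesium chelatase of chlorophyll synthesis, GSA1, a glutamate-1-semialdehyde aminotransferase that makes the precursor of chlorophyll and heme, CYP97B2, a cytochrome P450, and SGR1 and SGR2. Of their 10 clones 6 were tested, 0 passed in limma, 4 were above 0 and 2 below, and the median ratio was 0.054. The lowest was GSA1 with -0.21 ± 0.23 and the highest CYP97B2 with 0.46 ± 0.66 (SD, n = 3), the latter from 1.23 in replicate 2 beside 0.064 and 0.10 in the others. Of the CHLH clones, Gm-r1083-1915 was above background on all 6 arrays in both lines and had -0.022 ± 0.047, and Gm-r1083-1823 was above background on 3 of 6 in each line and had 0.052 ± 0.46. Per array, 70.0% to 100% of the spots of these 5 genes were above background in each line.

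Genes of other tissues were seen as well. Clones of 11 seed and cotyledon genes, which encode storage proteins, protease inhibitors and a lipoxygenase, were above background at 61.8% to 94.1% of their spots per array in IsoClark and 55.9% to 97.1% in Clark. Of their 34 clones 19 were tested, 0 passed, 12 were above 0 and 7 below, and the median was 0.028. The lowest was KTI-2 with -0.46 ± 0.52 and the highest GY5 with 0.80 ± 0.91 (SD, n = 3). Of the 9 root-gene clones tested 0 passed, 1 was above 0 and 8 below, with a median of -0.21, from IFS1 with -0.33 ± 0.24 to PIP2-6 with 0.043 ± 0.14 (SD, n = 3). Whether green tissue, light on the roots or signal from related transcripts had a part in the signal of CAB3, PSAD and ELIP was not tested. The list of light receptor genes had 0 clones.

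The clones with the most similar profile of ratios over the 6 arrays are given as a description only, since the arrays of a pair share their RNA and each clone was compared with 170 or 171 named clones of other genes. For CAB3 clone Gm-r1083-1761 they were clones of CHI2-A (Pearson's r = 0.97) and AS2 (0.94). For CAB3 clone Gm-r1083-1891 they were clones of LOC100101914 (0.93) and KASI (0.90). For ELIP clone Gm-r1070-5167 they were a clone of GBF2 (0.81) and the CAB3 clone Gm-r1083-1891 (0.80). Both CAB3 clones had their highest ratio, 0.68, on the IsoClark-Cy5 array of replicate 2, which weighs heavily in these r values. The r values were not computed without that array.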

How the data were processed

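Root RNA of Clark and IsoClark was compared on 6 spotted cDNA arrays, 3 replicates as dye-swap pairs. Samples were grouped by the dye that carried IsoClark, from the label fields. Spots were quantified by the authors in ImaGene 6.1.0. The scanner files they deposited hold the linear intensity of each spot and of its background, not normalized, with a code for spot quality. A second deposited file holds the authors' log2 ratios per array, whose correction and exact scale are not given in the sources used here; they served as an alternative and were turned to IsoClark over Clark. Pearson's r between these columns and Cy5 over Cy3 was -0.851, 0.863, -0.848, 0.838, 0.802 and 0.932, and their medians were 0.113, 0.0506, 0.0814, -0.0645, 0.0350 and -0.279, in array order. Gene symbols name rows of that table (1158 with 1 symbol, 13 with several, 18029 with none). The rows were tied to clones by clone number plus 1 shift per set, and all 192 runs of 96 clones correlated best at the row used. The rows of 64 control clones were not tied.

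Background was corrected with normexp (offset 50) and each array by global loess (limma 3.58.1 in R 4.3.3). Poor spots and blank positions had weight 0. Clone spots that the image program flagged as empty were kept and counted as usable. Swap pairs were averaged, and the 3 replicate values were tested by lmFit with eBayes, with Benjamini-Hochberg adjusted p under 0.05 over 13430 clones. The number of arrays limits the precision. The script was tested on simulated data. Shares above background were compared by exact sign-flip tests. The members, gene lists and tests were chosen with earlier results of these data known. Every clone of the 3 genes is named; of other lists the highest and lowest ratio are named, and 2 clones by likeness for each member usable on all arrays. The CHLH clones were named after their values were seen. Alternatives were other background, normalization, flag, threshold, dye and replicate choices.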

Additional observations from a re-analysis of the deposited data

Results flagged for a closer look

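The ratio of CAB3 clone Gm-r1083-1761 was below 0 on all 3 arrays with IsoClark in Cy3 and above 0 on all 3 arrays with IsoClark in Cy5, and this opposite movement is what singled it out. The mean with IsoClark in Cy5 exceeded that with IsoClark in Cy3 by 0.42 on the log2 scale (0.32 against -0.11). The size of this gap owes much to the IsoClark-Cy5 array of replicate 2, with 0.68 beside 0.048 and 0.22 in replicates 1 and 3. The difference between the dye orientations was not tested.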

How the results depend on the processing

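No clone passed an adjusted p of 0.05 under any alternative run. Among the 9 clones of the main test, every limma interval that could be fitted lay within 2-fold (9 of 9). The count was 7 of 7 without the IsoClark-Cy5 array of replicate 2, an alternative chosen after seeing the data. The number of all clones within 2-fold ranged from 11537 to 17707. The number of clones that could be fitted also differed between the runs, so these counts are not shares. The fit with the replicate block and a dye term changed no call. The median ratio of the 9 clones was 0.050. It was -0.0059 with print-tip loess and 0.0072 with the dye term and replicate block, ranged from 0.027 to 0.13 when 1 replicate was left out and was 0.12 with the IsoClark-Cy3 array of replicate 3 turned. The share of spots above background was 94.7% at 3 background SD and 81.1% at the 95th percentile of blank spots, where all cDNA spots had 80.3% and 59.6%. The brightness percentile ranged from 59.4 to 63.6.

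Signs near 0 turned often, and the cause was not tested. With print-tip loess, CAB3 clones Gm-r1083-1545, Gm-r1083-1589 and Gm-r1083-1761 had -0.020, 0.037 and -0.040. Gm-r1083-1589 had 0.13 with the signal median, and Gm-r1021-1099 had 0.012 without spot flags. Leaving out 1 replicate gave ranges of -0.19 to 0.18 (Gm-r1083-1545), -0.26 to 0.13 (Gm-r1083-1589), -0.024 to 0.25 (Gm-r1070-3929), -0.28 to 0.11 (PSAD Gm-r1021-2381) and -0.36 to 0.027 (PSAD Gm-r1070-1140). With the IsoClark-Cy5 array of replicate 2 turned, Gm-r1083-1589, Gm-r1083-1761 and PSAD Gm-r1070-1140 had 0.11, -0.12 and 0.24, and without it the first 2 had 0.041 and -0.036. With the replicate 3 array turned, Gm-r1070-3929 and Gm-r1083-1589 had -0.019 and 0.20. In the authors' table Gm-r1021-1099, PSAD Gm-r1021-2381, PSAD Gm-r1070-1140 and ELIP Gm-r1070-5167 had 0.038, 0.031, 0.011 and -0.061. CAB3 Gm-r1083-1891 alone of the 9 kept its sign under all 15.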
